A study of Mus musculus with 12 samples.

Results

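The Ikaros family of transcription factors has 5 genes in the mouse, *Ikzf1* (Ikaros), *Ikzf2* (Helios), *Ikzf3* (Aiolos), *Ikzf4* (Eos) and *Ikzf5* (Pegasus), and all 5 were taken as members by name from the 41255 genes of the mRNA table. The ribosome footprint (RPF) table, with 10080 genes, lists 4 of them, and *Ikzf3* is not among its genes. The measurements come from 12 libraries of Ba/F3, an IL-3 dependent mouse cell line that the labels call lymphoid. Retroviral vectors supplied the cells with human RPL10, WT in 3 clones (28, 29 and 36) and with the R98S mutation in 3 clones (11, 13 and 35), and an shRNA against endogenous *Rpl10* was present in both genotypes, so that no unmodified cells serve as a reference. Each clone is a culture grown from a single cell, and each gave 1 ribosome footprinting library and 1 matched mRNA library after 5 min in 100 μg/ml cycloheximide. Differences between genotypes are therefore differences between 3 and 3 clones, and clone-specific levels cannot be told apart from genotype beyond the spread between clones.

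Ikaros proteins bind DNA through zinc fingers near their N-terminus and pair with themselves and with each other through a second group of fingers at the C-terminus, so the relative amounts of the members shape which dimers can form. They recruit chromatin regulators, foremost the NuRD remodeling and deacetylase complex, to genes with a GGGA core motif, whereas Pegasus differs from the other members in the sequence it prefers. Ikaros and Aiolos are best known from B-cell development, Helios and Eos from regulatory T cells, and *IKZF1* is recurrently deleted or mutated in human acute lymphoblastic leukemia.

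In the mm10 annotation (GENCODE), *Ikzf1* lies at chr11:11685003-11772926 on the plus strand. The other members are on the minus strand, *Ikzf2* at chr1:69531214-69687245, *Ikzf3* at chr11:98464902-98546031, *Ikzf4* at chr10:128630843-128645991 and *Ikzf5* at chr7:131388652-131410521. The part of the start codon context in the footprints per mRNA given below was not tested. The stretch around each annotated start codon is shown from the principal transcript. It has 12 bases before the start codon, the start codon in capitals and 9 bases after it.
Ikzf1: aacctgaagacaATGgatgtcgat
Ikzf2: tgcactttgactATGgaaacagac
Ikzf3: gcccgcggcgacATGgaagatata
Ikzf4: cgagacgcagacATGcacacacca
Ikzf5: aaaagcaccaagATGggtgaaaag
All 5 windows hold a purine 3 bases before the start codon, which 85.7% of 18552 annotated genes do. The base after the start codon is G in every member except *Ikzf4*, and 50.2% of genes have G there. A total of 42.6% of genes have both features. Both are present in the windows of *Ikzf1*, *Ikzf2*, *Ikzf3* and *Ikzf5*.

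*Ikzf2* was by far the most abundant member, in mRNA and in footprints and in both genotypes. Values in the tables are read counts divided by the size factor of the library, called normalized counts here. They were scaled to gene length (per kb of exon for mRNA, per kb of counted coding sequence for RPF) wherever genes are compared with each other. On this scale, *Ikzf2* mRNA ranged from 455 to 1088 normalized counts per kb over the 6 libraries, *Ikzf5* from 123 to 167, *Ikzf4* from 21.2 to 31.5 and *Ikzf1* from 0.284 to 10.6. The ranges of neighbors in this order did not overlap. *Ikzf2* thus lay between percentiles 84.8 and 95.7 of all detected genes, and *Ikzf5* between 57.3 and 69.9. *Ikzf4* and *Ikzf1* reached percentiles of 32.3 to 43.4 and 5.29 to 35.0.

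The order was the same in footprints, with one exception among the clones. *Ikzf2* had 435 to 988 normalized counts per kb of counted coding sequence (percentiles 75.5 to 88.4). *Ikzf5* had 18.0 to 40.1 (percentiles 11.4 to 20.0), *Ikzf4* 4.87 to 17.1 (percentiles 3.89 to 10.4) and *Ikzf1* 0.540 to 8.04 (percentiles 0.401 to 5.53). *Ikzf4* and *Ikzf1* overlapped, and in WT clone 29 *Ikzf4* stood below *Ikzf1*, at 0.623 of its level. These low values rest on few reads, since *Ikzf4* had 112 footprint reads over 6 libraries and *Ikzf1* had 30, against 8135 for *Ikzf2*.

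*Ikzf3*, the member most tied to mature lymphoid cells, had 0 reads in all 6 mRNA libraries. With 3 reads as the limit that a count of 0 allows, its level was under 2.58 normalized counts in each R98S library and under 8.06 in WT clone 28, the shallowest mRNA library, with 2.35 and 2.47 in the other WT clones. This limit covers counting error only. No genotype comparison could be made for *Ikzf3*.

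**Figure D1:**
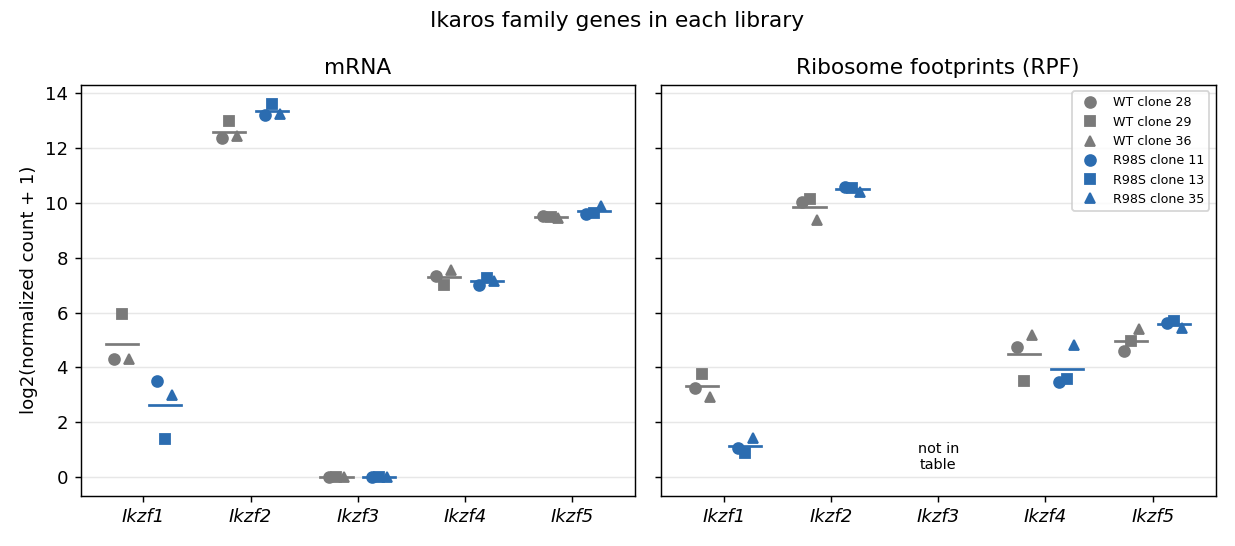
Normalized counts of the 5 Ikaros family genes in each library, as log2(normalized count + 1), for mRNA (left) and ribosome footprints (right), not scaled to gene length. Points are clones, horizontal lines are genotype means, and the R98S and WT points do not overlap for *Ikzf1*, *Ikzf2* and *Ikzf5* in either assay, while those of *Ikzf4* do.

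*Ikzf2*, which encodes Helios, was the member with more mRNA in RPL10 R98S cells that passed the test. For the mRNA, R98S clones 11, 13 and 35 gave 9579, 12637 and 9782 normalized counts, and WT clones 28, 29 and 36 gave 5279, 8077 and 5622. Every R98S clone was above every WT clone, and WT clone 29 was the closest to the R98S clones. As these are bulk samples, a higher level per cell and a larger share of cells with the message cannot be told apart. The means were 10666 ± 1710 (SD, n = 3) and 6326 ± 1526 (SD, n = 3), a log2 fold change of 0.77 (SE 0.21, limma adjusted p = 0.0811, threshold 0.1). Among the 4 members tested for mRNA, *Ikzf2* was the 1 called higher, against a background of 3.03% of the 11344 genes tested. None was called lower with limma, against 3.91% of genes, and 2 of the 4 had an unadjusted p under 0.05, as did 17.9% of all genes tested. With edgeR and with DESeq2 on whole reads *Ikzf1* was below the threshold (adjusted p = 0.0975 and 0.0538), a gene that reached the mean of 10 normalized counts needed for testing only through its WT values. Of the 11344 genes, edgeR called 440 lower and DESeq2 705. The call for *Ikzf2* held in 1 of the 6 fits that leave out a clone, the one without WT clone 29 (0.96, adjusted p = 0.0357). The adjusted p was 0.199 without R98S clone 11, 0.297 without 13, 0.128 without 35, 0.115 without WT clone 28 and 0.234 without 36, with log2 fold changes of 0.64 to 0.84.

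Footprints on *Ikzf2* had the same order of genotypes. For the footprints, R98S clones 11, 13 and 35 gave 1517, 1507 and 1347 normalized counts, and WT clones 28, 29 and 36 gave 1042, 1129 and 668. The groups did not overlap, and WT clone 36 stood lowest. The log2 fold change was 0.66 (SE 0.21, 95% interval 0.19 to 1.13), of a size like that of the mRNA, and did not pass the threshold (limma adjusted p = 0.118). It passed when WT clone 29 was left out (0.80, adjusted p = 0.0837). None of the 3 members tested in RPF passed with limma or edgeR, and limma called 3.13% of 9580 genes higher and 4.62% lower. Of the 3, only *Ikzf2* had an unadjusted p under 0.05, as did 20.3% of all genes. *Ikzf2* passed with DESeq2 (adjusted p = 0.0763), which called 460 of the 9580 genes higher and 627 lower.

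The median level of the whole chromosome that holds *Ikzf2* also differed between clones. The median gene of chromosome 1 was 0.21 (log2) higher in R98S than in WT clones in mRNA and 0.17 higher in RPF. Relative to the mean of the 6 libraries, the chromosome 1 median in mRNA was 0.20 in R98S clones 11 and 13 and -0.08 in clone 35. With each chromosome's median removed from each library, the mRNA difference of *Ikzf2* was 0.56 (limma adjusted p = 0.181) and no longer passed. The part of the chromosome 1 shift in the difference of *Ikzf2* was not tested further.

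*Ikzf1*, the founding member, had its lower values in the R98S clones. For the mRNA, R98S clones 11, 13 and 35 gave 10.3, 1.64 and 6.88 normalized counts, and WT clones 28, 29 and 36 gave 18.8, 61.0 and 18.8. All R98S clones lay below all WT clones, and WT clone 29 stood far above the other WT clones. The mean was 6.28 ± 4.37 (SD, n = 3) in R98S and 32.9 ± 24.4 (SD, n = 3) in WT clones. The log2 fold change of -2.23 (SE 0.70, 95% interval -3.80 to -0.66) was the largest of the family in mRNA, but with this spread it missed the threshold (limma adjusted p = 0.124). Leaving out WT clone 28, in which *Ikzf1* had 7 reads, gave -2.51 (adjusted p = 0.0983). *Ikzf1* was among the genes tested only because of its WT values, the R98S mean lying below the required 10, so none of these p-values is independent of that filter. Without the filter the adjusted p was 0.159. Counting noise is large here, with 2 reads in R98S clone 13 and 74 in WT clone 29, and the exact Poisson 95% intervals of these 2 libraries ran from 0.198 to 5.92 and from 47.9 to 76.6 normalized counts. Those intervals cover counting error only. The median gene of chromosome 11, which holds *Ikzf1*, stood at 0.27 (log2, relative to the mean of the 6 libraries) in R98S clone 13, the clone with the least *Ikzf1* mRNA.

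Footprints on *Ikzf1* followed the same order of genotypes. R98S clones 11, 13 and 35 gave 1.06, 0.838 and 1.68 normalized counts, from 2, 1 and 1 reads. In WT clones 28, 29 and 36 they were at 8.60, 12.5 and 6.59, from 9, 12 and 5 reads. The 26 reads of the WT clones against 4 of the R98S clones gave a ratio of 8.62 after scaling by size factors, with an exact 95% interval of 2.99 to 34.0 that covers counting error only. The same pooled ratio for mRNA, from 105 and 23 reads, was 5.81 (3.68 to 9.57). Of the 105 WT reads 74 came from clone 29, and the mRNA ratio was 2.98 without that clone and 8.75 without R98S clone 11. With a mean below 10 normalized counts, *Ikzf1* was outside the genes tested in RPF. Without that filter its log2 fold change was -2.20 (SE 0.47, limma adjusted p = 0.0313). Every gene listed in RPF has 1 read or more in each library, so the R98S values lie at or next to this floor. The floor limits their spread, so this SE and p-value cannot be taken as a measure of the difference.

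*Ikzf5*, which encodes Pegasus, showed a small difference in mRNA. For the mRNA, R98S clones 11, 13 and 35 gave 779, 799 and 954 normalized counts, and WT clones 28, 29 and 36 gave 736, 709 and 703. R98S and WT clones were apart from each other, but the log2 fold change of 0.23 (SE 0.17, 95% interval -0.16 to 0.62) did not pass the test (limma adjusted p = 0.538). For the footprints, R98S clones 11, 13 and 35 gave 47.9, 51.1 and 42.0 normalized counts, and WT clones 28, 29 and 36 gave 22.9, 30.2 and 40.9. Again there was no overlap, with R98S clone 35 next to WT clone 36. These 2 values rest on 25 and 31 reads. They lie less than 1 read of R98S clone 35 apart, which is worth 1.68 normalized counts. The log2 fold change of 0.60 (SE 0.32, 95% interval -0.10 to 1.30) did not pass (limma adjusted p = 0.320).

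Reads of *Ikzf5* cannot all be assigned with certainty. *Ikzf5* shares 4652 of its 5721 exonic bases and 1202 coding bases with *Pstk*, which encodes the kinase that acts on seryl-tRNA for selenocysteine, on the opposite strand. The mRNA kit keeps the strand, but whether counting used it is not given in the sources used here. *Pstk* had log2 fold changes of 0.29 in mRNA and 0.34 in RPF, and neither passed (limma adjusted p = 0.537 and 0.379). The median gene of chromosome 7 was 0.18 higher in R98S clones in mRNA and 0.20 in RPF, and *Ikzf5* mRNA differed by 0.05 once chromosome medians were removed. Antisense genes also overlap exons of *Ikzf2* and *Ikzf4*, over 144 and 37 bases.

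*Ikzf4*, which encodes Eos, gave no separation of the genotypes. For the mRNA, R98S clones 11, 13 and 35 gave 127, 153 and 143 normalized counts, and WT clones 28, 29 and 36 gave 161, 128 and 189. The log2 fold change was -0.16 (SE 0.25, 95% interval -0.73 to 0.41, limma adjusted p = 0.794). For the footprints, R98S clones 11, 13 and 35 gave 10.1, 10.9 and 26.9 normalized counts, and WT clones 28, 29 and 36 gave 25.8, 10.4 and 35.6. The clones overlapped in both assays, and the RPF difference of -0.53 (SE 0.54, 95% interval -1.72 to 0.65, limma adjusted p = 0.622) has a wide interval.

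Of the 4 members tested for mRNA, 3 had clones that did not overlap between genotypes, against 23.5% of genes tested. *Ikzf1* is among these 3 and met the filter only through its WT values, so its separation is not independent of that filter. In RPF this held for 2 of the 3 tested, against 25.3%, and for *Ikzf1*, which was not tested there. The gap of *Ikzf5* in RPF was less than 1 read of R98S clone 35.

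**Figure D2:**
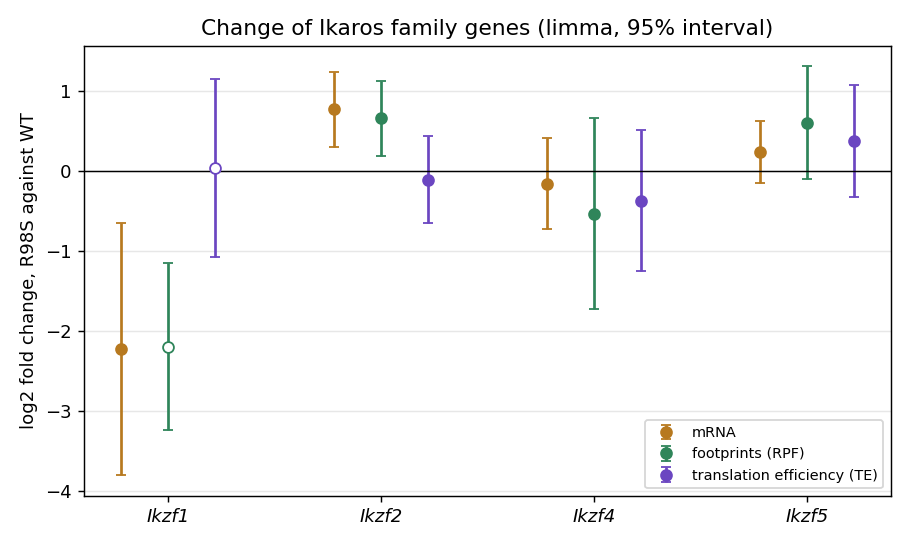
Log2 fold change, R98S against WT (n = 3 clones each), of 4 Ikaros family genes for mRNA, RPF and translation efficiency, with the 95% interval from limma. Filled points are from the main test and open points from a fit without the filter on low values. *Ikzf1* lies below 0 in mRNA and RPF, *Ikzf2* above 0, and every interval for translation efficiency includes 0. The R98S footprints of *Ikzf1* lie at or next to the floor of 1 read, so its RPF interval cannot be taken as a measure of the difference.

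Translation efficiency (TE), the ratio of footprints to mRNA in the same clone, did not pass the test for any member. For *Ikzf2*, the ratio of RPF to mRNA normalized counts was 0.158, 0.119 and 0.138 in R98S clones 11, 13 and 35 and 0.197, 0.140 and 0.119 in WT clones 28, 29 and 36. The 2 genotypes overlapped, and the difference in log2 TE was -0.11 (SE 0.24, 95% interval -0.66 to 0.43, limma adjusted p = 0.907). For *Ikzf5* the ratio was 0.0615, 0.0640 and 0.0440 in R98S clones and 0.0312, 0.0426 and 0.0581 in WT clones in the same order. The difference in log2 TE was 0.37 (SE 0.31, 95% interval -0.32 to 1.07, limma adjusted p = 0.733). For *Ikzf4* it was -0.37 (SE 0.39, 95% interval -1.25 to 0.51, limma adjusted p = 0.781). None of the 3 members tested for TE was called with limma, edgeR or DESeq2, and none had an unadjusted p under 0.05 (7.85% of all genes did), while limma called 0.0221% of 9043 genes. None had clones that did not overlap, where 14.8% did. *Ikzf1*, outside the genes tested for TE, had a difference of 0.03 in a fit without the filter (95% interval -1.08 to 1.15).

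In footprints per mRNA, *Ikzf2* differed more from *Ikzf4* and from *Ikzf5* than the genotypes did for any of these 3 members. Because the 2 tables were normalized separately, this density (RPF per kb of counted coding sequence over mRNA per kb of exon) was set against the median gene of the same clone. For *Ikzf2* it lay between -0.16 and 0.51 on the log2 scale, at percentiles 44.1 to 66.4 of 8770 genes. For *Ikzf5* it lay between -2.91 and -1.81, at percentiles 0.958 to 6.11, and thus near the bottom of all genes in each of the 6 clones. For *Ikzf4* it lay between -2.29 and -0.84, at percentiles 2.14 to 20.7. *Ikzf2* was above *Ikzf5* in 6 of 6 clones, by 2.31 ± 0.63 (SD, n = 6), and above *Ikzf4* in 6 of 6 clones, by 1.67 ± 0.69 (SD, n = 6). *Ikzf4* was above *Ikzf5* in 4 of 6 clones, so this pair did not differ beyond the spread of clones (0.63 ± 0.92, SD, n = 6). The density of *Ikzf1* spread from -1.39 to 0.92, at percentiles 10.5 to 80.8, and rests on 1 to 12 footprint reads per library. With the length of the principal transcript in place of all exons, percentiles were 53.9 to 75.1 for *Ikzf2*, 7.41 to 41.8 for *Ikzf4* and 2.10 to 9.06 for *Ikzf5*. The exons that *Ikzf5* shares with *Pstk* cover most of its exonic and of its coding bases, and their part in this low density was not tested.

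**Figure D3:**
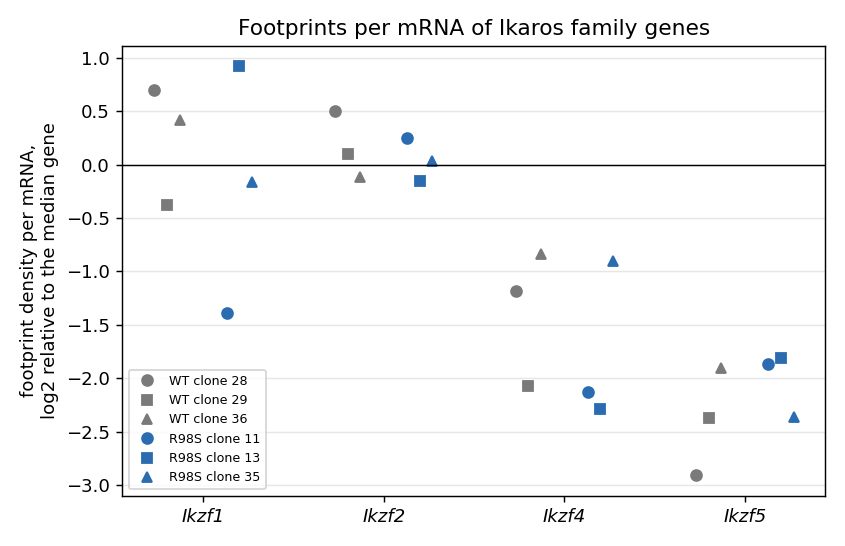
Footprints per mRNA of 4 Ikaros family genes in each clone, as the log2 of the length-scaled ratio relative to the median gene of that clone (0). *Ikzf2* sits near the median gene in all 6 clones, *Ikzf5* below -1.8 in all 6, and *Ikzf1* is spread widely.

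The composition of the family followed from these levels. *Ikzf2* made up 81.5 to 86.8% of the summed, length-scaled mRNA of the family in R98S clones and 74.1 to 81.7% in WT clones, with R98S clone 35 just below WT clone 29. *Ikzf5* made up most of the remainder, at 11.1 to 16.1% in R98S and 14.6 to 20.97% in WT clones. In footprints the share of *Ikzf2* was 94.9 to 95.8% in R98S and 89.1 to 95.2% in WT clones. The share of *Ikzf5* in footprints was 2.52 to 6.56% over all clones, lower than in mRNA in each of them. *Ikzf1* stayed at or below 1.24% of the mRNA and 1.04% of the footprints.

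The summed level of the family was higher in each R98S clone than in each WT clone. It was 1091 ± 144 (SD, n = 3) normalized counts per kb of exon in R98S and 702 ± 130 (SD, n = 3) in WT clones for mRNA, a log2 difference of 0.64 (SE 0.18). For RPF it was 994 ± 60.8 (SD, n = 3) and 658 ± 150 (SD, n = 3) per kb of counted coding sequence, a log2 difference of 0.62 (SE 0.21). Both gave p = 0.1 in an exact two-sided permutation test, the smallest that 3 against 3 clones allow. This p-value restates the lack of overlap, which 23.5% of single genes tested in mRNA and 25.3% in RPF also had. These sums are mostly *Ikzf2*, as its shares show.

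Ratios of one member to another do not depend on size factors. *Ikzf2* exceeded *Ikzf1* mRNA, per length, 462-, 3838- and 708-fold in R98S clones 11, 13 and 35 and 140-, 65.8- and 149-fold in WT clones 28, 29 and 36. In footprints the same ratio was 1442, 1818 and 811 in R98S clones and 123, 91.3 and 103 in WT clones. The ratio of Helios to Ikaros messages thus differed in both assays without overlap of the genotypes, by 3.28 (SE 1.01) in mRNA and 3.62 (SE 0.37) in RPF on the log2 scale. In RPF the R98S values of *Ikzf1* lie at or next to the floor of 1 read. The floor limits their spread, so the SE of 0.37 cannot be taken as a measure of the difference. In mRNA *Ikzf1* met the filter only through its WT values, so this separation is not independent of that filter. The R98S ratios rest on 13, 2 and 8 *Ikzf1* reads in mRNA and on 2, 1 and 1 in RPF, and the mRNA difference was 2.36 without R98S clone 13 and 3.89 without R98S clone 11. The 12 ratios compared in 2 assays had exact two-sided permutation p-values of 0.1 or more (0.171 or more after Benjamini-Hochberg adjustment over the 12). The ratios of *Ikzf2*, *Ikzf4* and *Ikzf5* to *Ikzf1* did not overlap between genotypes in either assay, and as they share the *Ikzf1* values they are not separate observations. *Ikzf2* to *Ikzf4* did not overlap in mRNA (difference 0.93, SE 0.35). *Ikzf2* to *Ikzf5* overlapped in both assays, with differences of 0.54 (SE 0.27) in mRNA and 0.04 (SE 0.45) in RPF. Of single genes tested, 23.5% in mRNA and 25.3% in RPF had no overlap between genotypes, and no such share was computed for ratios.

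**Figure D4:**
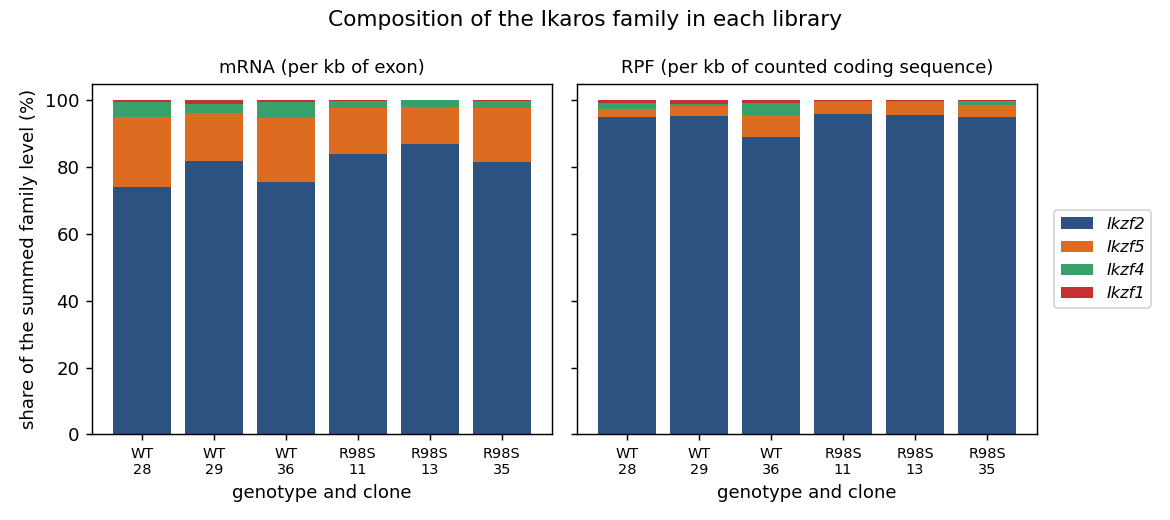
Share of each Ikaros family gene in the summed, length-scaled level of the family in each library, for mRNA (left) and RPF (right), as stacked bars in percent from 0. *Ikzf2* fills 74.1 to 86.8% of each mRNA bar and 89.1 to 95.8% of each RPF bar, and *Ikzf3* adds 0.

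Across the 12 libraries, the members did not share one profile. With values as log2(normalized count + 1), centered within each table, Pearson's r was -0.57 between *Ikzf2* and *Ikzf4*, 0.39 between *Ikzf2* and *Ikzf5* and -0.28 between *Ikzf4* and *Ikzf5*. The 2 libraries of a clone share its cells, so these are 6 independent cultures and r is a description. Among 9500 genes tested in both tables, the profiles most like that of *Ikzf2* included those of *Aaas*, a nuclear pore protein gene (r = 0.951), and *Ccdc173* (0.942). For *Ikzf5* they were *Tmem9b* (0.927), which lies on the same chromosome, *Cep120*, a centriole protein gene (0.925), and *Txndc17* (0.923). For *Ikzf4* they were *Myo19*, a mitochondrial myosin gene (0.882), *Slc30a6*, a zinc transporter gene (0.874), and *Arid3b* (0.849).

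Genes that encode partners of the Ikaros proteins were mostly detected and mostly did not pass the test. Of 66 genes in 6 lists of partners and described targets, 49 were tested for mRNA, with 2 called higher and 2 lower, where 3.03% and 3.91% of all genes were called, and a median log2 fold change of 0.02 against 0.01 over all genes. In RPF 48 were tested, with 4 called higher and 4 lower, where 3.13% and 4.62% of all genes were called (median 0.04 against 0.01). For TE 47 were tested, 4 had an unadjusted p under 0.05, and none was called with limma, edgeR or DESeq2. These counts moved with the clones used, from 1 to 4 in either direction in mRNA and from 0 to 6 higher and 1 to 4 lower in RPF when each clone was left out. Without R98S clone 11, and likewise without R98S clone 13, no listed gene was called higher and 1 was called lower in RPF. In mRNA the count called higher was 1 without R98S clone 11 or 13 or WT clone 29 or 36, and the count called lower was 1 without R98S clone 11 or 13 or WT clone 36. Without WT clone 28, 4 were called lower in mRNA, and 2 were called higher and 1 lower in RPF, and without WT clone 36 the RPF counts were 1 and 2. Without R98S clone 35, 4 were called higher in mRNA.

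The NuRD complex, through which Ikaros acts on chromatin, had all 13 listed subunits tested. None was called in mRNA with limma, edgeR or DESeq2, with 0 at an unadjusted p under 0.05 (17.9% of all genes tested). In RPF 2 were called higher with limma, which called 3.13% of all genes higher. Neither was called without R98S clone 11, nor without R98S clone 13. *Mta1*, a scaffold subunit, gave footprint values of 1173, 1052 and 754 normalized counts for R98S clones 11, 13 and 35, against 463, 540 and 582 for WT clones 28, 29 and 36. The groups did not overlap, as for 25.3% of genes tested in RPF. The log2 fold change of *Mta1* was 0.89 (SE 0.20, limma adjusted p = 0.0397), while its mRNA differed by 0.12 (limma adjusted p = 0.771). *Mbd3*, the methyl-CpG-binding domain subunit, had 390, 413 and 366 against 205, 243 and 225 in the same order of clones. Its footprints rose by 0.80 (SE 0.18, limma adjusted p = 0.0376) and its mRNA differed by -0.23 (limma adjusted p = 0.629). In TE these 2 genes differed by 0.77 and 1.03, without overlap of the clones (14.8% of genes tested for TE), and neither passed (limma adjusted p = 0.629 and 0.590).

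Among 10 other corepressors and remodelers, 2 were called higher in both assays, where 3.03% of all genes were in mRNA and 3.13% in RPF. Neither was called in RPF without R98S clone 11, nor without R98S clone 13. *Ctbp2*, a corepressor that Ikaros family proteins bind, gave mRNA values of 601, 590 and 683 normalized counts for R98S clones 11, 13 and 35, against 309, 279 and 324 for WT clones 28, 29 and 36. The clones did not overlap, as for 23.5% of genes tested in mRNA. *Ctbp2* rose by 1.04 (SE 0.19, limma adjusted p = 0.0163) in mRNA and 0.75 (SE 0.19, limma adjusted p = 0.0553) in RPF. *Eed*, a subunit of Polycomb repressive complex, rose by 0.68 in mRNA (SE 0.20, limma adjusted p = 0.0954) and 0.68 in RPF (SE 0.21, limma adjusted p = 0.0975).

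Enzymes that modify Ikaros proteins gave single calls with limma. Of 8 listed kinase and phosphatase genes, *Csnk2a2*, a catalytic subunit of the casein kinase that phosphorylates Ikaros, fell in RPF by 0.66 on the log2 scale (SE 0.19, limma adjusted p = 0.0845). Of the 5 genes of the cereblon ubiquitin ligase, which degrades Ikaros and Aiolos under thalidomide analogs, *Cul4a*, the cullin scaffold, fell in mRNA by 0.79 (SE 0.17, limma adjusted p = 0.0347). For the mRNA, R98S clones 11, 13 and 35 gave 1176, 1290 and 1556 normalized counts, and WT clones 28, 29 and 36 gave 2479, 2221 and 2233. In RPF all 5 ligase genes had lower means in R98S clones (median -0.53 against 0.01 over all genes). An unadjusted p under 0.05 was found for 3 of the 5, and for 20.3% of all genes tested in RPF. Of the 5, limma called none, edgeR called 1 and DESeq2 called 3. Of all 9580 genes tested, limma called 443 lower (4.62%), edgeR 472 and DESeq2 627. *Crbn* itself, the substrate receptor, differed by 0.02 in mRNA and -0.18 in RPF, and neither passed (limma adjusted p = 0.975 and 0.628).

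Most lymphoid genes described as Ikaros targets were too low to test. Of 24 such genes, 7 were tested for mRNA and none was called with limma or edgeR. An unadjusted p under 0.05 was found for 2 of the 7, and for 17.9% of all genes tested. DESeq2 called 1 in each direction, where it called 578 of 11344 genes higher and 705 lower. In RPF 6 were tested, of which *Ccnd3*, the cyclin D3 gene, fell by 0.58 (SE 0.17, limma adjusted p = 0.0903). All 6 metabolic genes described as targets were tested. *Txnip*, an inhibitor of glucose uptake and of thioredoxin, gave mRNA values of 8205, 5852 and 8978 normalized counts for R98S clones 11, 13 and 35, against 15932, 15983 and 19340 for WT clones 28, 29 and 36. Its footprints were at 1849, 1171 and 3014 against 10479, 6987 and 7837. Neither assay showed overlap, as for 23.5% of genes tested in mRNA and 25.3% in RPF. *Txnip* fell by 1.17 in mRNA (SE 0.20, limma adjusted p = 0.0132) and 2.15 in RPF (SE 0.31, limma adjusted p = 0.00526). *Insr*, the insulin receptor gene, fell by 0.77 in RPF (SE 0.18, limma adjusted p = 0.0450), and *Nr3c1*, the glucocorticoid receptor gene, differed by 0.01 in mRNA and 0.11 in RPF and did not pass.

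**Figure D5:**
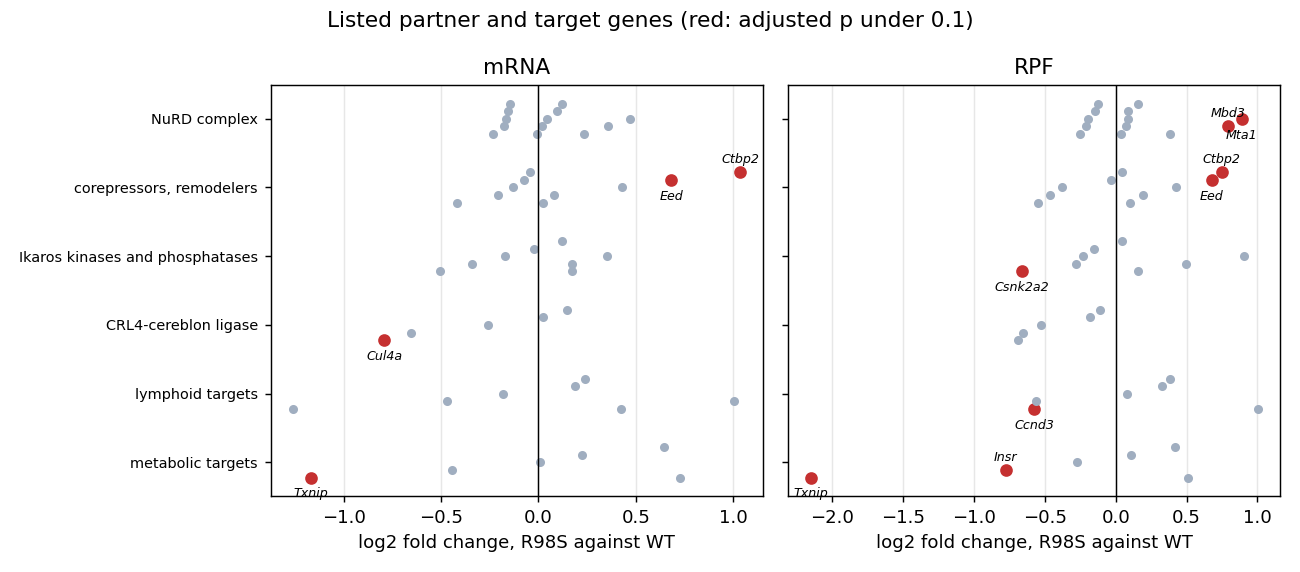
Log2 fold change, R98S against WT, of the listed partner and target genes that were tested, in mRNA (left) and RPF (right), with 1 point per gene and 1 band per list. Red points passed an adjusted p of 0.1 (limma), which 4 genes did in mRNA and 8 in RPF.

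The core motif TGGGAA, searched on both strands in promoter windows of 300 bases (RefSeq, mm10), was found in 25.6% of 32851 windows. Windows were matched for 2 members, *Ikzf1* with 2 windows and *Ikzf5* with 1, and none of these 3 holds the motif. It was in 4 of 29 windows of the described target genes, in 23.5% of windows of genes called higher in R98S mRNA and in 22.7% of those called lower, against 23.1% of windows of all genes tested. These shares are descriptions, and a match is not a binding site.

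The label lymphoid was checked against marker genes. Of 9 pro-B markers, 2 had a mean of at least 10 normalized counts in mRNA, and *Pax5* and *Rag1* were at 0 in all 6 mRNA libraries, like *Ikzf3*. Of 5 markers of IL-3 dependent progenitors 4 were detected, with *Kit* at 0. Of 5 mast cell or basophil markers 4 were detected, and their summed level was 12241 to 15825 normalized counts in R98S and 20397 to 26588 in WT clones. The sum of 5 T cell markers was 50.7 to 78.6 in R98S and 2.47 to 32.2 in WT clones, with 1 of them at a mean of at least 10. The sum of 5 macrophage or granulocyte markers was 0 to 25.8 and 31.3 to 54.1 (1 of 5 detected), and that of 5 erythroid markers was 452 to 673 and 339 to 666 (4 of 5 detected). The sum of the pro-B markers was 1350 to 1672 in R98S and 893 to 1155 in WT clones, and that of the progenitor markers 99455 to 120902 and 46935 to 92744. In mRNA the pro-B, progenitor and T cell sums, higher in R98S clones, and the mast cell and macrophage sums, lower in them, did not overlap between genotypes. In RPF the pro-B, progenitor, T cell and erythroid sums were higher in every R98S clone than in any WT clone. The mast cell sums (5335 to 8248 and 6720 to 8961) and macrophage sums (0.838 to 1.68 and 1.04 to 15.3) overlapped. RPF lacks 7 of 9 pro-B, 4 of 5 T cell, 3 of 5 erythroid and 4 of 5 macrophage markers. It also lacks 1 progenitor and 2 mast cell markers, so the RPF sums cover only part of each list. Among single genes tested, clones did not overlap for 23.5% in mRNA and 25.3% in RPF. The part of these sums in the differences of *Ikzf1* and *Ikzf2* was not tested.

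Depth limited the low members most. Reads in genes were 20576796 to 22178094 in the R98S mRNA libraries and 6617457 to 23136595 in the WT ones, where clone 28 was the lowest, so that 1 of its reads is worth 2.69 normalized counts. RPF libraries had 3477723 to 10883086 reads in R98S and 4611390 to 7162305 in WT clones. *Rpl10*, the knocked-down gene, differed by -0.42 in mRNA and -0.15 in RPF between the genotypes, both carrying the shRNA, and neither passed (limma adjusted p = 0.551 and 0.794).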

How the data were processed

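Members and gene lists were chosen with earlier results of these data known. For each assay the authors deposited signal values, gene counts divided by the DESeq2 size factor of the library, with size factors set separately for mRNA and RPF. Per the labels and the methods of the study, ribosomal RNA reads were removed with Bowtie2, reads were aligned to mm10 with TopHat2 and those with a mapping quality of at least 10 were kept. RPF reads were counted in coding sequence, without the first 15 and last 5 codons, after merging 3 technical replicates. The counting program's strand setting is not given in the sources used here.

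All values above 0 were whole multiples of 1 read (relative tolerance 1e-06), which gave read counts and depth. Every gene of the RPF table has 1 read or more in each library. The test between genotypes was limma 3.58.1 with a variance trend, run in R 4.3.3 on log2(value + 1) of genes with a mean of at least 10, and TE as log2 RPF minus log2 mRNA per clone for genes with at least 10 in all 12 libraries. A fold change on this scale understates changes of low genes. Benjamini-Hochberg adjustment covered all genes tested (threshold 0.1). Other sums and ratios were compared with exact two-sided permutation tests over clones. Alternatives were pseudocounts of 0.5 and 5, other filters, edgeR 4.0.16 and DESeq2 1.42.0 on whole reads, library weights, removal of chromosome medians and each clone left out. The fits were tested on simulated data.

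The 2 libraries of a clone carry its number in the labels. Their deviations from the genotype means correlated at 0.218 to 0.681 over 9043 genes, and TE was computed within clones. The correlation was 0.218 in WT clone 28 and 0.311 in WT clone 36, and from 0.609 to 0.681 in the other clones. The mRNA and RPF libraries of WT clones 28 and 36 thus matched least. Clones of the 2 genotypes share no number.

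Lengths and overlaps came from GENCODE (mm10), matched by symbol for 36776 genes of the mRNA table and 9785 of the RPF table. Named genes were the members, from each list up to 3 rises and 3 falls called in mRNA or RPF, the 3 profiles most like each member, absent markers and *Rpl10*. One gene that this rule names is not reported here. *Crbn*, *Nr3c1* and *Pstk* were named with their values in view and do not follow from that rule. Babel, used by the study for TE, was not run.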

Additional observations from a re-analysis of the deposited data

How the results depend on the processing

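For *Ikzf2* mRNA, the call was lost with no filter on low values (0.77, adjusted p = 0.111) and with chromosome medians removed (0.56, adjusted p = 0.181), and held under the other 6 settings that keep all clones. Leaving out 1 clone gave *Ikzf2* 0.64 to 0.96 in mRNA, 0.42 to 0.80 in RPF and -0.27 to 0.09 in TE. *Ikzf1*, which met the filter in mRNA only through its WT values, was below the threshold in mRNA with edgeR (-2.40, adjusted p = 0.0975), DESeq2 (-2.41, 0.0538) and library weights (-1.70, 0.0768) and in RPF with no filter (-2.20, 0.0313). In that RPF fit its R98S values lie at or next to the lowest read count that a listed gene can have. *Ikzf2* RPF passed with DESeq2 (0.62, 0.0763) and library weights (0.90, 0.0160). *Ikzf1* mRNA ranged from -2.67 to -1.62 without 1 clone. *Ikzf2* TE turned to 0.0055 with library weights and to 0.093 without WT clone 28, and the *Ikzf2* to *Ikzf5* ratio in RPF ranged from -0.41 to 0.33 without 1 clone. Single clones whose removal changed a call of *Ikzf1* or *Ikzf2* are named in the report. No other value of *Ikzf1*, *Ikzf2*, *Ikzf4* or *Ikzf5* changed sign or side of the threshold under these settings.

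The pairing of libraries within a clone changed no call of a member. Without the replicate block, the TE differences were the same (-0.11 for *Ikzf2*, -0.37 for *Ikzf4* and 0.37 for *Ikzf5*) and adjusted p was 0.9998 for each member tested.

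Counts of genes called higher and lower in mRNA were 578 and 705 with DESeq2 and 1454 and 1505 with library weights, against 344 and 443 with limma. In RPF they were 460 higher with DESeq2 and 882 and 917 with library weights, against 300 and 443. In TE library weights called 416 and 380, and DESeq2 and no filter called 6 and 4 lower, against 0 and 2. Listed partner and target genes called with DESeq2 were 4 higher and 4 lower in mRNA and 7 lower in RPF. Leaving out 1 clone gave 122 to 486 higher and 180 to 623 lower in mRNA, 62 to 510 and 164 to 646 in RPF and 0 to 1 and 0 to 2 in TE. The listed genes then ranged from 1 to 4 in either direction in mRNA and from 0 to 6 higher and 1 to 4 lower in RPF. The density of *Ikzf2* relative to the median gene was 0.10, and 0.36 with principal transcript lengths, a setting chosen after seeing the data. The same change of lengths took *Ikzf4* from -1.57 to -0.93 and *Ikzf5* from -2.20 to -1.91, as means of the clones. The cause of these shifts was not tested.

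Depth limits *Ikzf1*, *Ikzf3* and the footprints of *Ikzf4*, whose values rest on few reads.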
